A study of Mus musculus with 16 samples.

Results

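The 8 genes described here mark dendritic cells or direct their development: Clec9a, Flt3, Xcr1, Batf3, Zbtb46, Itgax, Irf8 and Irf4. They were chosen by symbol from the 37620 genes in the files, and each was found and had at least 1 count in all 16 libraries. RNA was sequenced from the proximal jejunum, the upper middle stretch of the small intestine, of male CBA/J mice, an inbred strain. All mice were 8 weeks old, and a group held 4 libraries. The groups were mice on a methionine supplemented diet (300%) with 8.5 Gy of gamma radiation, mice on a methionine adequate diet with 8.5 Gy, mice on the supplemented diet with 0 Gy, and mice on the adequate diet with 0 Gy. A period of 6 days is stated, and whether it counts days of diet or days after exposure is not. The tissue is whole jejunum, so fewer cells of a type and less RNA per cell cannot be told apart. No label says whether the libraries of a group came from separate mice, and p-values measure the spread between these libraries.

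Dendritic cells are sentinel leukocytes that take up antigen in tissues, carry it to lymph nodes and show it to T cells. Conventional dendritic cells arise from bone marrow precursors under the growth factor Flt3 ligand, are replaced continuously, and fall into type 1 cells (cDC1), which present antigen to CD8 T cells, and type 2 cells (cDC2), which mainly prime CD4 T cells. In the small intestine they lie in the lamina propria beneath the epithelium and in lymphoid follicles. Clec9a, a receptor for dead cells, Xcr1, a chemokine receptor, and the transcription factor Batf3 mark or make cDC1, and Irf8 is needed for both cDC1 and plasmacytoid dendritic cells. Irf4 acts in cDC2, Zbtb46 separates conventional dendritic cells from other myeloid cells, and Itgax encodes the CD11c integrin chain. Not all of these are private to dendritic cells: intestinal macrophages also carry CD11c, B cells and macrophages use Irf8, and plasma cells and activated T cells use Irf4.

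The promoter windows of 3 members are printed because these genes bracket the response described below. Clec9a and Flt3 were the members called lower after irradiation on both diets, and Itgax was the member with a positive CPM difference in each irradiation comparison. Each window runs from 250 bases before to 50 bases after the annotated transcription start, 5′ to 3′ on the strand of the gene. The sequences are those of RefSeq on build GRCm38.p6, which is later than the build the counts were made on. Capitals mark a match to 1 of the 4 motifs searched.
Clec9a, chr6:129408612-129408911, plus strand: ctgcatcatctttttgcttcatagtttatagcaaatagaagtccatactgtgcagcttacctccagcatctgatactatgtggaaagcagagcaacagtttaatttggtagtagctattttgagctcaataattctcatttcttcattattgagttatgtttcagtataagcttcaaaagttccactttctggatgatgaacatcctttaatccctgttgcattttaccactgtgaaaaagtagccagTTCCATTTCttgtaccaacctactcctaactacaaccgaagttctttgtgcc
Flt3, chr5:147400440-147400739, minus strand: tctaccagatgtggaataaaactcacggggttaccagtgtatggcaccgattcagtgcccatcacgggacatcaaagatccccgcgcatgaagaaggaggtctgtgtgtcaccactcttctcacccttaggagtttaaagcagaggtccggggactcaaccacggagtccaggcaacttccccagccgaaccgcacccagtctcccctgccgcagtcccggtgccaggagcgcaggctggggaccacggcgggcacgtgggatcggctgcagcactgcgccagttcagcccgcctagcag
Itgax, chr7:128129300-128129599, plus strand: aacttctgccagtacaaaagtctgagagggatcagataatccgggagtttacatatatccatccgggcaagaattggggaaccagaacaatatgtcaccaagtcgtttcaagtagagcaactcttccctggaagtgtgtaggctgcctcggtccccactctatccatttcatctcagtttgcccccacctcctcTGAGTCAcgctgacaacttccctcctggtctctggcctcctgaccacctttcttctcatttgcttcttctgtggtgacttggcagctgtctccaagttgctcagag

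The motifs were GAGGAAGT (bound by the myeloid factor PU.1), GGAANNGAA (PU.1 together with an IRF protein), GAAANNGAA (IRF proteins) and TGANTCA (AP-1 proteins, among them BATF proteins), each read on both strands. All 8 members had a window, and Irf8 had 2, which makes 9. The Clec9a window held GAAANNGAA once, on the minus strand at bases 249 to 257 of the 300, across the start of the transcript. The Itgax window held TGANTCA at bases 195 to 201 and the Zbtb46 window held it at bases 190 to 196, and none of these matches overlapped another. In the windows of Flt3, Irf4, Irf8, Xcr1 and Batf3 none of the 4 was found, which says only that these letters are not in these 300 bases. Over 32851 mouse promoter windows of the same length, GAGGAAGT was present in 3.2%, GGAANNGAA in 8.24%, TGANTCA in 7.81% and GAAANNGAA in 8.56%. A match is a string of letters and was not read as a bound site.

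The libraries held between 2.57 and 15.51 M counts (M, mega), and 3 of them had less than 4 M: replicate 1 of the irradiated supplemented group, replicate 2 of the irradiated adequate group and replicate 1 of the unirradiated adequate group. Levels are given as CPM, a count per M of the library total after TMM scaling, which corrects totals for a few dominant genes. Of all genes, 16558 passed the filter on low counts, all 8 members among them. Epithelial genes dominated: 9 jejunal epithelium markers, such as Epcam and Fabp1, summed to between 10740 and 44447 CPM in a library, and the 8 dendritic cell genes to between 87.9 and 159 CPM. In 3 unirradiated libraries 4 follicular B cell genes (Ms4a1, Pax5, Cr2 and Tnfrsf13c) summed to 8.23, 10.2 and 18.9 CPM, against 0.391 to 1.76 CPM in the other 13. These were replicate 2 of the supplemented and replicates 2 and 4 of the adequate unirradiated group, and a value without them is given where a named gene's call is lost. Leaving them out also leaves fewer libraries. With irradiation averaged over the diets, all genes called lower then went from 2535 to 1523. A call can thus be lost while its log2 difference hardly changes, and the cause was not tested for any lost call.

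Per length, Irf8 was the most abundant member and Itgax came next, in each of the 4 groups. In unirradiated adequate jejunum Irf8 had 13.9 ± 1.03 TPM (the deposited length-corrected level; mean ± SD, n = 4) and Itgax 2.46 ± 0.496 TPM, and the ranges of neighbours down to this point did not overlap. The 6 others lay below 1 TPM on the same scale. Their means were 0.78 ± 0.142 for Clec9a, 0.542 ± 0.205 for Irf4, 0.518 ± 0.206 for Zbtb46, 0.452 ± 0.167 for Batf3, 0.305 ± 0.0342 for Flt3 and 0.205 ± 0.121 for Xcr1. From Clec9a downwards, each gene overlapped the next in the order, so the order between neighbours is not settled by 4 libraries. The range of Clec9a, 0.68 to 0.99 TPM, lay above those of Batf3 (0.21 to 0.59), Flt3 (0.27 to 0.35) and Xcr1 (0.07 to 0.33). TPM was not used to test doses, because its median over genes with a mean of at least 1 TPM was lower with irradiation by a log2 difference of -1.29 on the supplemented and -1.10 on the adequate diet, and 97.6% and 96.5% of those genes had lower means. The counts behind the members were small: 124 in all 16 libraries for Batf3, 362 for Xcr1, 406 for Flt3, 415 for Clec9a, 698 for Irf4 and 835 for Zbtb46, against 5128 for Itgax and 11706 for Irf8.

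Irradiation was the first question: how did 8.5 Gy change these genes on each diet? Clec9a and Flt3 were called lower on both diets, at between 0.257 and 0.403 of the unirradiated level. Irf4 was called only on the adequate diet, at 0.299 of that level, against 0.583 on the supplemented diet. Irf8 was called only on the supplemented diet, at 0.773, against 0.775 on the adequate diet, and that call was lost under several alternatives. Neither Irf4 nor Irf8 was shown to respond differently on the diets. Xcr1, Batf3, Zbtb46 and Itgax did not pass the test on either diet. With edgeR's quasi-likelihood test and Benjamini-Hochberg adjustment over the 16558 tested genes, 3 of 8 members were called lower on the adequate diet, where 6.58% of all tested genes were, and 0 were called higher, where 7.13% of all were. On the supplemented diet 3 of 8 were called lower, against 7.21% of all tested genes, and 0 higher, against 8.03%. Over the alternatives run, 2 to 4 members were called lower on the adequate diet and 2 to 3 on the supplemented diet. Averaged over the diets, 4 of 8 were lower, against 15.3% of all, and 0 higher, against 15.7%. The members' median log2 difference was -0.45 on the adequate diet, -0.78 on the supplemented diet and -0.62 averaged, while the medians over all tested genes were 0.01, 0.01 and 0.00. The irradiated libraries all lay below the unirradiated ones for 3 members on the adequate diet (Clec9a, Flt3 and Irf4), as they did for 10.1% of all tested genes, and for 4 on the supplemented diet (Clec9a, Flt3, Batf3 and Irf8), as for 9.23%.

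**Figure D1:**
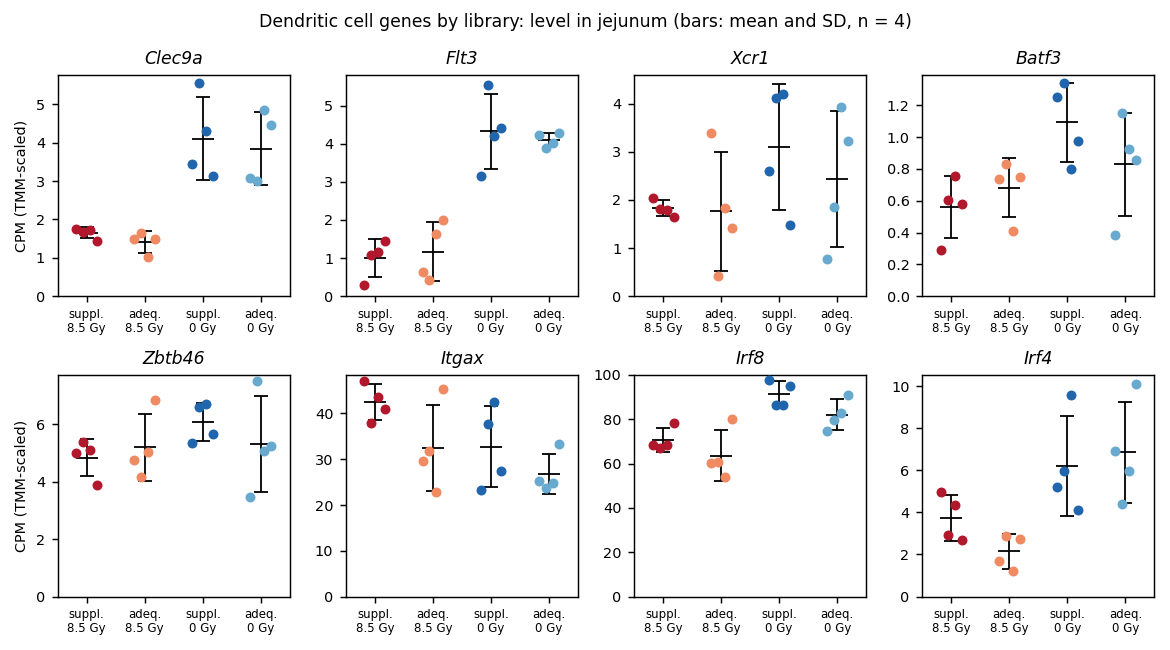
Level of each dendritic cell gene in every library, in CPM of TMM-scaled totals on a linear axis from 0, for supplemented and adequate diet at 8.5 Gy and then at 0 Gy; points are libraries and bars the mean and SD of 4. The irradiated points of Clec9a and Flt3 lie below all unirradiated points, those of Itgax and Zbtb46 overlap them.

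Among the surface receptors, Clec9a (ENSMUSG00000046080, chromosome 6) binds actin filaments exposed by dead cells and routes their antigens to presentation. It had 1.76, 1.68, 1.72 and 1.45 CPM in irradiated supplemented jejunum, against 3.45, 5.55, 4.3 and 3.13 CPM in unirradiated supplemented jejunum. With the adequate diet it had 1.48, 1.66, 1.02 and 1.5 CPM with irradiation, against 3.07, 3, 4.85 and 4.47 CPM without. The 8 irradiated libraries were close together and all lay below the 8 unirradiated ones. The log2 fold change was -1.31 ± 0.24 (SE) on the supplemented diet (adjusted p = 0.0019, 0.403 of the unirradiated level) and -1.50 ± 0.26 on the adequate diet (adjusted p = 0.00136, 0.353 of it), by edgeR's quasi-likelihood test. In the GENCODE M21 annotation an exon of Clec9a overlaps, on the same strand, one of Clec1b, a neighbouring lectin of platelets and myeloid cells. Reads there could belong to either gene, and their number was not measured. Clec1b had the opposite sign: its log2 difference was 0.63 on the supplemented diet (adjusted p = 0.322) and 1.59 on the adequate diet (adjusted p = 0.043). It had 3.81, 3.22, 3.65 and 2.04 CPM in irradiated and 1.25, 2.26, 3.1 and 1.47 CPM in unirradiated supplemented jejunum. On the adequate diet it had 2.01, 2.07, 1.84 and 1.83 CPM with irradiation and 0, 0.177, 0.619 and 1.33 CPM without. Clec1b lay above Clec9a in every irradiated library, and the part of shared reads in the Clec9a result was not tested.

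Flt3 (ENSMUSG00000042817, chromosome 5) is the receptor tyrosine kinase through which Flt3 ligand drives dendritic cell development, and it is also carried by early bone marrow progenitors. Its levels were 0.293, 1.07, 1.17 and 1.45 CPM in irradiated and 3.14, 5.55, 4.2 and 4.4 CPM in unirradiated supplemented jejunum. The adequate levels were 0.633, 0.415, 1.64 and 2 CPM in irradiated and 4.22, 3.89, 4.02 and 4.28 CPM in unirradiated jejunum. No irradiated library reached the lowest unirradiated one, and the unirradiated adequate libraries were nearly equal. The lowest irradiated values, 0.293 and 0.415 CPM, rest on 1 read count each, in libraries under 4 M counts. Flt3 had the most negative log2 fold change of the 8 genes on the supplemented diet, -1.96 ± 0.34 (adjusted p = 0.0013, edgeR), which is 0.257 of the unirradiated level, and -1.62 ± 0.35 on the adequate diet (adjusted p = 0.00642, 0.325 of it). Without the 3 libraries high in follicular B cell genes the adequate value was -1.63 and no longer passed (adjusted p = 0.0679), and the supplemented value was -1.83 (adjusted p = 0.0138).

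Xcr1 (ENSMUSG00000060509, chromosome 9), the receptor by which cDC1 follow the chemokine Xcl1 from T and NK cells, did not pass the test. It had 2.05, 1.81, 1.79 and 1.65 CPM in irradiated supplemented jejunum, against 2.61, 4.11, 4.2 and 1.47 CPM in unirradiated supplemented jejunum. The adequate levels were 3.38, 0.415, 1.84 and 1.42 CPM with irradiation and 0.767, 1.85, 3.92 and 3.23 CPM without. The groups overlapped on both diets, and the adequate libraries varied about as much within a group as between groups. The log2 differences were -0.78 ± 0.43 on the supplemented diet (adjusted p = 0.239) and -0.44 ± 0.44 on the adequate diet (adjusted p = 0.554), with 95% intervals from -1.61 to 0.06 and from -1.3 to 0.42. The supplemented interval takes in both no change and a fall as large as that of Clec9a on that diet, so there Xcr1 was told apart from neither. The adequate interval takes in no change and does not reach the Clec9a estimate of -1.50, but it overlaps the Clec9a interval, from -2.01 to -0.99. Averaged over the diets Xcr1 differed by -0.61 ± 0.31 and did not pass (unadjusted p = 0.0634, adjusted p = 0.145, edgeR). The 95% interval of that average, from -1.21 to -0.01, assumes a normal error and just excludes no change, although the edgeR test did not pass. It does not reach the Clec9a average of -1.41 but overlaps the Clec9a interval, from -1.75 to -1.06. A difference between Xcr1 and Clec9a was not tested on either diet or averaged.

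The transcription factors differed among themselves. Batf3 (ENSMUSG00000026630, chromosome 1) is the factor that stabilises the cDC1 fate, and it was the gene with the fewest counts, between 1 and 13 in a library. It had 0.293, 0.604, 0.758 and 0.582 CPM in irradiated and 1.25, 1.34, 0.799 and 0.978 CPM in unirradiated supplemented jejunum, and these groups did not overlap. For the adequate diet it had 0.739, 0.83, 0.41 and 0.75 CPM with and 0.383, 1.15, 0.928 and 0.856 CPM without irradiation, and the groups overlapped. The log2 differences of -0.83 ± 0.34 on the supplemented diet (adjusted p = 0.116) and -0.45 ± 0.37 on the adequate diet (adjusted p = 0.449) did not pass. Averaged over the diets the difference was -0.64 ± 0.25 (adjusted p = 0.0636, edgeR), and it passed with limma voom at -0.62 (adjusted p = 0.0477) and without replicate 1 of the unirradiated adequate group at -0.70 (adjusted p = 0.0462).

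Irf8 (ENSMUSG00000041515, chromosome 8), which sets the fate of cDC1 and plasmacytoid cells, was a member with ample counts, between 146 and 1001 in a library. Its levels were 68.4, 67.2, 68.3 and 78.5 CPM in irradiated and 97.8, 86.4, 86.4 and 94.9 CPM in unirradiated supplemented jejunum. With adequate methionine they were 60.1, 60.6, 53.9 and 80 CPM with irradiation and 74.8, 79.7, 82.9 and 91.1 CPM without. The supplemented groups were apart, and on the adequate diet only replicate 4 of the irradiated group entered the unirradiated range. The log2 fold change was -0.37 ± 0.12 on each diet, called on the supplemented diet (adjusted p = 0.0453, edgeR) and just outside the threshold on the adequate diet (adjusted p = 0.0515). Averaged over both diets Irf8 fell by 0.37 ± 0.08 on the log2 scale (adjusted p = 0.00351), to 0.774 of the unirradiated level. The calls on single diets turned with small changes of method. On the adequate diet Irf8 passed with RLE scaling (0.047), limma voom (0.0404) and DESeq2 (0.0208) and without replicate 4 of the irradiated group (0.0059, log2 -0.50). On the supplemented diet the call was lost without the low-count filter (0.0902), without the 3 shallow libraries (0.107), without the 3 follicle-rich libraries (0.093), and without any single unirradiated library or any of irradiated replicates 1 to 3 (adjusted p between 0.0543 and 0.121).

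Irf4 (ENSMUSG00000021356, chromosome 13), the factor of cDC2 and of plasma cells, had 4.99, 2.95, 4.34 and 2.71 CPM in irradiated and 5.23, 5.96, 9.59 and 4.11 CPM in unirradiated supplemented jejunum. On the adequate diet it had 1.69, 2.9, 1.23 and 2.75 CPM in irradiated and 6.9, 4.42, 5.98 and 10.1 CPM in unirradiated jejunum. The adequate groups were apart, and the supplemented ones met between 4.11 and 4.99 CPM. Irf4 fell on the adequate diet, with a log2 fold change of -1.74 ± 0.35 (adjusted p = 0.00427, edgeR; 0.299 of the unirradiated level), and its difference of -0.78 ± 0.32 on the supplemented diet did not pass (adjusted p = 0.111). The responses on the diets were not shown to differ, since the interaction was 0.96 ± 0.47 with an unadjusted p = 0.0579 and an adjusted p = 1. B cell and plasma cell markers, whose cells also use Irf4, were lower after irradiation too, with values given below, and their part in the Irf4 result was not tested. Without the 3 follicle-rich libraries Irf4 still passed on the adequate diet, at -1.63 (adjusted p = 0.0416).

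Zbtb46 (ENSMUSG00000027583, chromosome 2), a repressor that holds conventional dendritic cells in their lineage and is also made by endothelial cells, had overlapping groups in CPM on both diets. Its levels were 4.99, 5.37, 5.1 and 3.88 CPM in irradiated and 5.33, 6.58, 6.69 and 5.67 CPM in unirradiated supplemented jejunum. On the adequate diet they were 4.75, 4.15, 5.02 and 6.83 CPM with and 3.45, 7.51, 5.05 and 5.23 CPM without irradiation. The log2 difference was -0.33 ± 0.20 on the supplemented diet (adjusted p = 0.31) and -0.05 ± 0.21 on the adequate diet (adjusted p = 0.905), and without the follicle-rich libraries the adequate difference was 0.26. The 95% intervals, from -0.73 to 0.07 and from -0.47 to 0.36, do not reach the estimates for Clec9a and Flt3 on the same diets. In TPM it averaged 0.23 with and 0.618 without irradiation on the supplemented diet, without overlap, and 0.253 and 0.518 on the adequate diet, with overlap. Relative to the TPM shift of all genes these log2 differences were -0.14 and 0.06.

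The integrin chain Itgax (ENSMUSG00000030789, chromosome 7) forms a complement receptor with Itgb2. It had 47.2, 38, 43.6 and 40.9 CPM in irradiated and 23.3, 37.8, 42.4 and 27.5 CPM in unirradiated supplemented jejunum. On the adequate diet it had 29.6, 31.9, 22.8 and 45.4 CPM in irradiated and 25.3, 23.8, 24.7 and 33.3 CPM in unirradiated jejunum. The groups overlapped on both diets, although the irradiated means, 42.4 ± 3.94 and 32.4 ± 9.46 CPM, were the higher ones, against 32.8 ± 8.85 and 26.8 ± 4.39 CPM. The direction turned on the TPM scale, on which every irradiated library lay below the unirradiated ones: means were 1.61 with and 2.94 without irradiation on the supplemented diet, and 1.41 and 2.46 on the adequate diet. Relative to the TPM shift of all genes, the log2 differences of Itgax were 0.42 and 0.30. In CPM, the log2 differences of 0.37 ± 0.20 on the supplemented diet (adjusted p = 0.237) and 0.28 ± 0.21 on the adequate diet (adjusted p = 0.406) did not pass, nor did the average of 0.32 ± 0.14 (adjusted p = 0.101, edgeR). The average passed without replicate 3 of the irradiated adequate group (0.39, adjusted p = 0.0409) or without replicate 3 of the unirradiated supplemented group (0.40, adjusted p = 0.0468). The 95% interval of the average ran from 0.04 to 0.60, while that of Clec9a ran from -1.75 to -1.06 and that of Flt3 from -2.27 to -1.31.

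**Figure D2:**
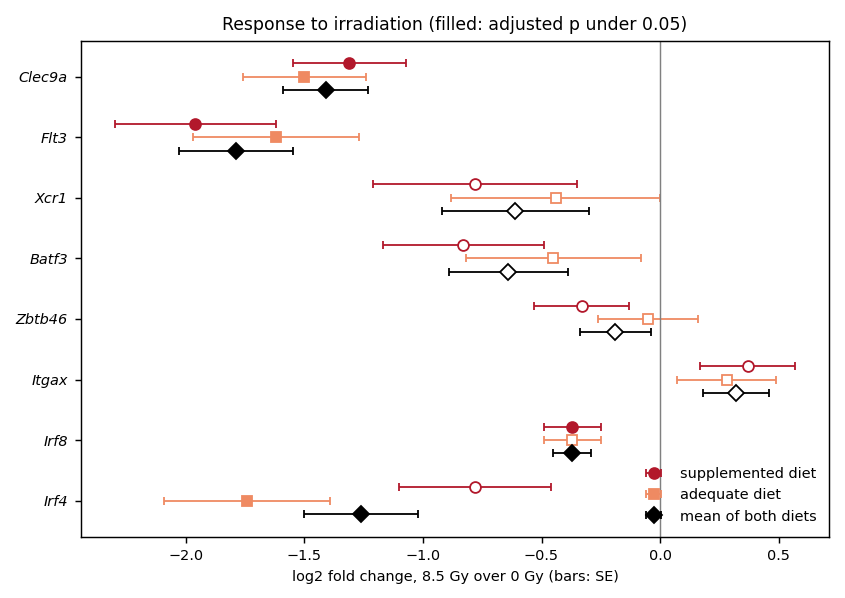
Log2 fold change of each dendritic cell gene with irradiation, 8.5 Gy over 0 Gy, on the supplemented diet (circles), the adequate diet (squares) and averaged (diamonds), with SE as bars; filled symbols passed at an adjusted p under 0.05. Flt3, Clec9a and Irf4 have the most negative averages, -1.79, -1.41 and -1.26, and Itgax is at 0.32.

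Setting each gene against Ptprc, the CD45 phosphatase of all leukocytes, asks how it moved relative to a gene that leukocytes share. Ptprc itself had 37.6, 29.1, 38 and 26.2 CPM in irradiated and 32.7, 51.6, 50.2 and 29.1 CPM in unirradiated supplemented jejunum, and 21.1, 28.2, 25 and 36.4 CPM with and 31.1, 35, 29.7 and 44.7 CPM without irradiation on the adequate diet. Its log2 differences of -0.33 and -0.35 did not pass (adjusted p = 0.317 and 0.298). Relative to Ptprc, on the scale of log2(CPM + 0.5), Clec9a differed by -0.78 on the supplemented diet, with means of -3.93 ± 0.19 with irradiation and -3.15 ± 0.17 without, and its difference was -0.82 on the adequate diet. Flt3 differed by -1.45 and -1.24 and Itgax by 0.69 and 0.59 on the supplemented and adequate diets, and Irf4 by -1.13 on the adequate diet. In these 7 comparisons the groups did not overlap and the exact two-sided permutation p was 0.0286, the smallest that 4 against 4 libraries allow. It became 0.0653 after Benjamini-Hochberg adjustment over 16 tests and so did not pass. The share of all tested genes that separate on this ratio was not computed, so whether these 7 exceed it is not known. The size of these differences depended on the leukocyte gene. Relative to Laptm5 in place of Ptprc, Itgax differed by 0.31 on the supplemented and 0.22 on the adequate diet (adjusted p = 0.166 and 0.422), and relative to Coro1a by 0.97 and 0.75. Clec9a on the supplemented diet ranged from -1.16 relative to Laptm5 to -0.51 relative to Coro1a. For Irf8 the ratio differed by -0.08 on the supplemented diet (exact p = 0.857) and -0.03 on the adequate diet (exact p = 0.8). Zbtb46, at -0.01 and 0.34, Batf3, at -0.30 and 0.20, and Xcr1, at -0.26 and -0.06, overlapped between groups, as did Irf4 on the supplemented diet, at -0.35 (exact p = 0.0857).

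**Figure D3:**
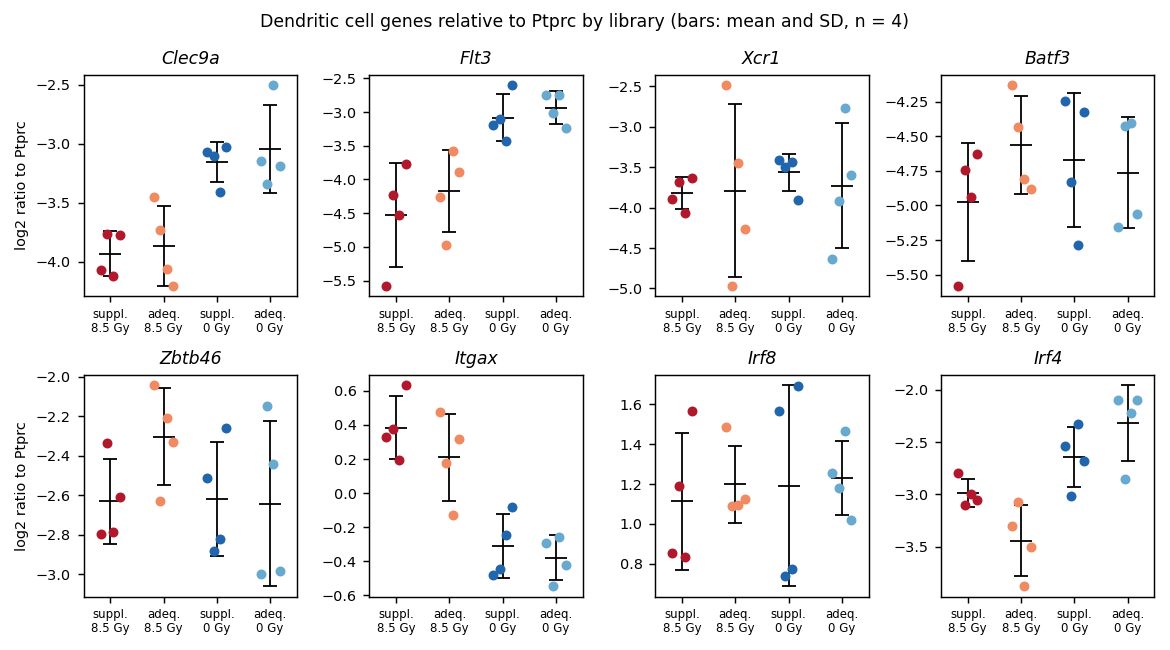
Log2 ratio of each dendritic cell gene to the all-leukocyte gene Ptprc, log2(CPM + 0.5) of the gene minus that of Ptprc, in every library, with the mean and SD of 4 as bars. Irradiated libraries lie below for Clec9a and Flt3 and above for Itgax on both diets, and overlap for Irf8.

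Diet was the second question: did methionine supplementation shift these genes, with or without irradiation? No member passed the test. In unirradiated jejunum, supplemented over adequate, the 8 log2 differences lay between -0.13 (Irf4) and 0.29 (Itgax), with adjusted p-values from 0.626 to 0.959, where 0.199% of all tested genes, 33, were called. After irradiation they lay between -0.26 (Flt3) and 0.83 (Irf4), and 0 members were called, as were 0% of all tested genes. At an unadjusted p under 0.05, 1977 genes and 0 members passed without irradiation and 871 genes and 1 member after it. DESeq2 called 171 genes higher and 63 lower without irradiation and 3 higher and 6 lower after it, and limma voom 39 higher and 12 lower without irradiation and 0 after it, with 0 members among them by either tool.

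Irf4 was the member with an unadjusted p below that threshold. Its irradiated supplemented libraries, at 2.71 to 4.99 CPM, overlapped the irradiated adequate ones, at 1.23 to 2.9 CPM, and the difference of 0.83 ± 0.36 had an unadjusted p = 0.0341 and an adjusted p = 0.927 (edgeR). Itgax followed, at 0.38 ± 0.20 (adjusted p = 0.937). For the interaction, the response on the supplemented minus that on the adequate diet, 0 members and 0% of all tested genes were called by edgeR, 738 genes and 0 members had an unadjusted p under 0.05, and DESeq2 called 1 gene and limma voom 0. The intervals leave room for differences of some size: for Clec9a the 95% interval of the interaction was -0.50 to 0.88, for Flt3 -1.3 to 0.62 and for Xcr1 -1.54 to 0.86 on the log2 scale.

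Other genes of the same cells place these results among their neighbours. The list counts below are averaged over the diets, where with all 16 libraries 15.7% of all tested genes were higher and 15.3% lower. Of 11 tested further cDC1 genes, averaged over the diets, 5 fell and 1 rose (median log2 difference -0.67 against 0.00 for all tested genes). Wdfy4, needed for cross-presentation by cDC1, averaged 12.3 ± 2.58 and 10.4 ± 2.66 CPM in irradiated supplemented and adequate jejunum, against 42.1 ± 15.7 and 36.5 ± 5.76 CPM in unirradiated supplemented and adequate jejunum. Its log2 fold change was -1.79 ± 0.18 (adjusted p = 4.27e-06, edgeR), beside averages of -1.79 ± 0.24 for Flt3 (adjusted p = 5.56e-05) and -1.41 ± 0.18 for Clec9a (adjusted p = 2.80e-05). Itgae, the CD103 chain of intestinal dendritic cells and intraepithelial T cells, fell by 0.83 ± 0.14 and Btla, an inhibitory receptor of cDC1 and lymphocytes, by 2.38 ± 0.43 on the log2 scale. Cd24a, also abundant in crypt epithelium, was the one that rose (1.07 ± 0.12). Without the follicle-rich libraries 4 were lower and 1 higher.

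Of 10 tested cDC2 genes 2 were higher and 2 lower (median -0.12), shares near the 15.7% higher and 15.3% lower of all tested genes. Cd209a, a lectin of monocyte-derived and type 2 dendritic cells, had 0.635 ± 0.192 and 0.779 ± 0.425 CPM in irradiated supplemented and adequate jejunum, against 2.46 ± 0.587 and 1.94 ± 0.19 CPM in the unirradiated groups in the same diet order, and fell by 1.55 ± 0.25 (log2, adjusted p = 0.000197). Itgam, the CD11b chain shared with macrophages and neutrophils, rose by 0.98 ± 0.14. Mgl2, a lectin of cDC2 and macrophages, rose by 0.84 ± 0.15 and Dtx1, a regulator of Notch signalling, fell by 0.71 ± 0.16. Of 10 plasmacytoid dendritic cell genes 6 fell and 1 rose (median -0.65), and 3 and 1 did so without the follicle-rich libraries. Siglech, the receptor that marks these cells in mice, had the deepest fall of that list, to 0.338 ± 0.303 and 0.586 ± 0.21 CPM in irradiated supplemented and adequate jejunum, against 5.43 ± 1.48 and 4.35 ± 1.65 CPM without irradiation (-3.33 ± 0.30, adjusted p = 1.48e-06). Bst2, an interferon-inducible surface protein, and the gut-homing receptor Ccr9 also fell, by 1.51 ± 0.21 and 0.88 ± 0.20, and Klk1, a kallikrein, rose by 0.70 ± 0.10.

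Of 12 tested genes of mature, migrating dendritic cells, 3 were higher and 1 lower (median 0.12). The chemokine Ccl17 rose by 2.99 ± 0.53 (adjusted p = 0.000547) at low levels, 1.97 ± 1.26 and 1.7 ± 0.951 CPM in irradiated supplemented and adequate jejunum, against 0.283 ± 0.216 and 0.118 ± 0.138 CPM without irradiation. Tmem176a and Tmem176b, ion channel proteins of dendritic cells, rose by 0.40 ± 0.09 and 0.33 ± 0.08, and Socs2, an inhibitor of cytokine signalling, fell by 0.30 ± 0.10, a call lost without the follicle-rich libraries (-0.27, adjusted p = 0.095). Of 12 tested ligands and receptors of dendritic cell growth and positioning, Kit (0.63 ± 0.13) and its ligand Kitl (0.41 ± 0.12) rose and Ltb (-1.0 ± 0.30) and Csf2ra (-0.45 ± 0.17), a lymphotoxin chain and the GM-CSF receptor chain, fell. These 2 higher and 2 lower are shares near those of all tested genes, 15.7% and 15.3%. Without the follicle-rich libraries neither fall passed: Ltb was at -0.45 (adjusted p = 0.353) and Csf2ra at -0.44 (adjusted p = 0.149). Flt3l, the ligand of Flt3, was listed and has no value here.

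Of 17 further transcription factors of the lineage, 4 fell and 2 rose (median -0.13), and 4 and 1 did so without the follicle-rich libraries. Runx3, which acts in CD8 T cells and in some dendritic cells, fell by 1.10 ± 0.18, the lymphoid and myeloid factor Ikzf1 by 0.73 ± 0.14, Cebpa, a factor of myeloid progenitors, by 0.45 ± 0.09, and Id2, an inhibitor needed for cDC1, by 0.40 ± 0.09 on the log2 scale. Among 7 integrin chains related to Itgax, its partner Itgb2 rose by 0.39 ± 0.13 (adjusted p = 0.0287), as did Itgam, while Itgae, Itgad (-0.97 ± 0.29) and the gut-homing chain Itgb7 (-0.92 ± 0.16) fell. The Itgad call was lost without the follicle-rich libraries (-0.84, adjusted p = 0.121). Itgb2 averaged 28.8 ± 4.61 and 20.9 ± 3.45 CPM in irradiated supplemented and adequate jejunum, against 19.9 ± 5.09 and 17.2 ± 2.19 CPM in unirradiated supplemented and adequate jejunum.

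**Figure D4:**
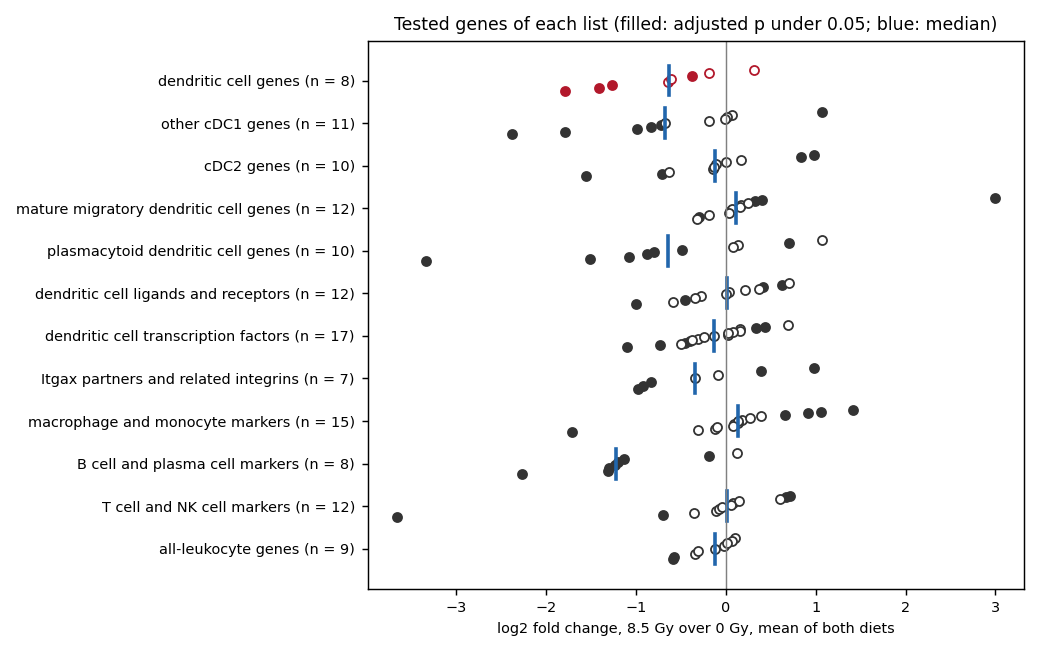
Log2 fold change with irradiation, 8.5 Gy over 0 Gy averaged over both diets, of every tested gene in the dendritic cell list and in 11 lists of related or other cells; filled points passed at an adjusted p under 0.05 and the blue bar is the median of the list. The medians are -0.62 for the 8 dendritic cell genes, -0.67 for further cDC1 genes, -0.65 for plasmacytoid genes, -1.22 for B cell and plasma cell markers and 0.14 for macrophage and monocyte markers.

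Some markers of other leukocytes were called as well, beside the 15.7% higher and 15.3% lower of all tested genes. Their part in the member results was not tested. Of 15 macrophage and monocyte markers 4 rose and 1 fell (median 0.14). The one that fell was Ly6c2, a marker of fresh monocytes (by 1.71 ± 0.19 on the log2 scale), and Lyz2, Mrc1 and Cd14 rose by 1.42 ± 0.19, 0.92 ± 0.14 and 1.06 ± 0.20. The list summed to between 556 and 677 CPM in irradiated supplemented and 513 and 639 CPM in irradiated adequate libraries, against 412 to 510.3 and 378 to 524 CPM in the unirradiated supplemented and adequate ones. Single genes weigh heavily in such a sum. Lyz2 averaged 152 ± 45.6 and 104 ± 17.3 CPM in irradiated supplemented and adequate jejunum, against 47.1 ± 17.1 and 46.8 ± 12.5 CPM without irradiation. Of 15 B cell and plasma cell markers 8 were tested and 7 fell (median -1.22), 4 without the follicle-rich libraries. Jchain, the joining chain of secreted antibodies, fell by 1.20 ± 0.18, Mzb1, a plasma cell chaperone, by 1.3 ± 0.23, Cd79a by 2.26 ± 0.41 and Derl3 by 1.23 ± 0.26. The B cell and plasma cell list summed to 191 to 228 CPM in irradiated supplemented and 145 to 181 CPM in irradiated adequate libraries, against 261 to 477 and 294 to 540.0 CPM in the unirradiated supplemented and adequate ones. Most of that sum was Jchain, with means of 139 ± 18.3 and 101 ± 22.4 CPM in irradiated supplemented and adequate jejunum, against 259 ± 96.5 and 287 ± 98.3 CPM. Of 12 T cell and NK cell genes 2 rose (Gzmb and Gzma) and 2 fell (Cd8b1 and Cd3d), shares near those of all tested genes. Of 9 all-leukocyte genes 0 rose and 2 fell, Rac2 by 0.57 ± 0.13 and Coro1a by 0.59 ± 0.14. Of 4 tested follicle stroma genes Ccl9 and Cxcl13 rose, by 2.73 ± 0.16 and 1.59 ± 0.35, and Madcam1 fell by 0.73 ± 0.23, and 0 of 9 epithelial markers were called in either direction. Without the follicle-rich libraries 4 of these named calls were lost: Gzma was at 0.54 (adjusted p = 0.0617), Cd3d at -0.69 (0.161), Coro1a at -0.33 (0.0668) and Madcam1 at -0.32 (0.431). In each of these leukocyte lists, every gene had a count in at least 1 library of each group.

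Within groups, the members did not vary as a unit. Over the 16 libraries, after subtraction of each group's mean log2 CPM, the 28 pairs of members had correlations from -0.27 to 0.80 with a median of 0.20. These are descriptions without a test: the libraries share depth differences, and several genes have few counts. Itgax and Irf4 varied most alike, at 0.80, and each also varied with Ptprc, at 0.81 and 0.75, and Itgax with the macrophage receptor gene Csf1r at 0.75. Clec9a had 0.67 with Wdfy4, 0.63 with Itgax and 0.61 with Irf4. Clec9a and Flt3, which had the same direction after irradiation on both diets, had -0.15 within groups.

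**Figure D5:**
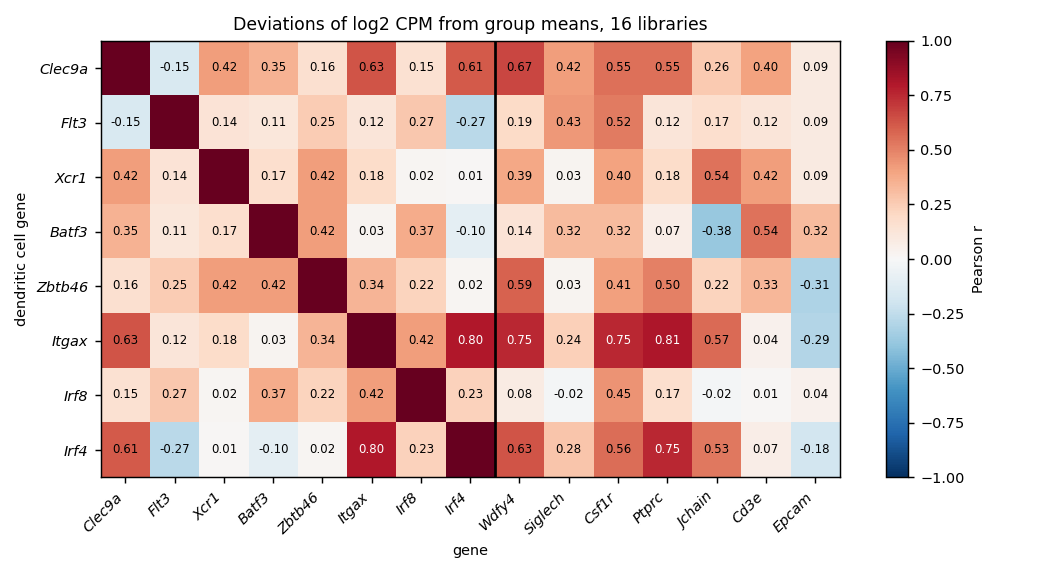
Pearson correlation, over 16 libraries, of the deviations of log2 CPM from the group mean between the 8 dendritic cell genes (rows) and the same genes and 7 further marker genes (columns), coloured from -1 to 1. Of the further genes, Wdfy4 is a cDC1 gene, Siglech a plasmacytoid dendritic cell gene and Ptprc an all-leukocyte gene. Itgax has its highest values with Ptprc (0.81), Irf4 (0.80), Csf1r (0.75) and Wdfy4 (0.75), and Flt3 reaches 0.52 at most, with Csf1r.

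By the same measure, among 12323 protein-coding genes with a symbol and a mean log2 CPM of at least 1, the genes most like Clec9a were Ccr1 (0.88), Htra3 (0.87) and Tlr7 (0.86). Those most like Itgax were Msn (0.94), Psap (0.92) and Filip1l (0.92), those most like Irf4 were Psma7 (0.94), Rgl1 (0.88) and Nucb2 (0.87), and those most like Irf8 were Igtp (0.85), Ssbp3 (0.84) and Med1 (0.84). Flt3 was most like Lynx1 (0.92) and Nenf (0.87), Xcr1 like Ly6c1 (0.92), Msi2 (0.90) and Ptpn1 (0.90), Batf3 like Tceanc (0.93), Krtcap2 (0.88) and Zfp113 (0.84), and Zbtb46 like Mrrf (0.91), Mapkapk3 (0.90) and Creg1 (0.90). The names are given as a description, without a test.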

How the data were processed

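RNA of proximal jejunum was sequenced after removal of ribosomal RNA and fragmentation, with a small RNA library protocol, per the labels' protocols. Per the submitters' processing notes, Bowtie2 2.2.9, RSEM 1.3.0, build NCBIM37 and edgeR 3.2.4 were used, with roles not given. Per the file headers, each library's file holds the authors' RSEM expected count (an estimated count that shares ambiguous reads among genes), TPM and gene lengths. Expected counts were rounded to whole numbers for testing. TPM served for the order between genes and, without a test, for a description of the doses for Zbtb46 and Itgax. It was not tested since a TPM depends on all other genes of its library (its shift with irradiation, computed after seeing the data, is given in the text).

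Symbols came from GENCODE M21, which named 32897 of 37620 gene IDs, and 4723 had none. No member had counts equal to those of another gene. Groups are those of the labels, which give no batch or date, and replicates were numbered in order of deposit, so numbers pair nothing. Any 2 libraries of a group differed by more than counting error (chi-square per degree of freedom of at least 9.48).

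Genes were kept by filterByExpr, scaled by TMM (factors 0.846 to 1.11) and fitted with a mean per group over all 16 libraries by edgeR 4.0.16 (robust quasi-likelihood F test, two-sided, R 4.3.3), with a common biological coefficient of variation of 0.219. P-values were adjusted by Benjamini-Hochberg over 16558 genes and called under 0.05. The SE of a log2 fold change is its size over the square root of F, and 95% intervals assume a normal error of that SE. The script was tested on simulated data. Ratios to Ptprc used a pseudocount of 0.5 CPM and exact permutation tests. Alternatives were RLE scaling, scaling on protein-coding genes, no filter, no robust estimation, limma 3.58.1 voom, DESeq2 1.42.0, fits of the 2 groups compared, leaving out the 3 libraries under 4 M counts or each library, and other pseudocounts and leukocyte genes. Leaving out the 3 libraries richest in follicular B cell genes was added after seeing the data.

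The members and the 13 other gene lists were chosen with earlier results of these data known. Named genes are all members, Ptprc, from each list at most 4 called genes by smallest p in a comparison, and the 3 genes most like each member, 1 of which is not reported here for Flt3. The marker columns of the correlation plot, with Csf1r, were chosen after their values were seen, as were the alternatives named beside single members and Clec1b, Itgad and Itgb2. Calls lost without the follicle-rich libraries are given for list genes named. Promoter windows are from RefSeq on GRCm38.p6, and no coordinates were converted between builds.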

Additional observations from a re-analysis of the deposited data

Results flagged for a closer look

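In each of the 32 sets of 4 libraries (8 genes in 4 groups), the gap between the highest or lowest library and its nearest neighbour was divided by the range of the group, and 2 sets exceeded Dixon's limit of 0.829 for 4 samples. Chance flags about 1 in 20 groups. Irf8 had 78.5 CPM in replicate 4 of irradiated supplemented jejunum, above the 68.4, 67.2 and 68.3 CPM of its group, with a gap of 0.897 of the range. Itgax had 33.3 CPM in replicate 4 of unirradiated adequate jejunum, above the 25.3, 23.8 and 24.7 CPM of its group, with a gap of 0.837 of the range. That library also had the highest sum of follicular B cell genes, 18.9 CPM, and a Ptprc level of 44.7 CPM, the highest of its group; their part in the Itgax value was not tested.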

How the results depend on the processing

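Of 925 alternative values of the members' log2 differences, 875 kept direction and side of the threshold, 11 lost a call, 8 gained one and 31 changed sign. Of 192 alternative ratios to Ptprc, 169 kept both and 23 changed sign. No ratio passed with all libraries, and with a library left out the exact permutation p cannot fall under 0.05. For those ratios the side of the threshold was thus fixed in advance, and only their sign and size could change. Clec9a (-1.62 to -1.36 adequate, -1.42 to -1.14 supplemented) and Irf4 on the adequate diet (-2.0 to -1.45) passed under every alternative run; Flt3 did so except on the adequate diet without the follicle-rich libraries (-1.63). The cause was not tested for any change below. Genes called fell without the follicle-rich libraries, to 382 higher and 255 lower on the adequate diet, 791 and 621 on the supplemented diet and 1523 lower averaged, and to 624 lower on the adequate diet without the shallow libraries. Leaving out a library gave 690 to 1273 higher and 541 to 1205 lower (adequate), 805 to 1821 and 627 to 1806 (supplemented), and 0 to 1 member higher averaged. For diet without irradiation the counts were 171 higher and 63 lower with DESeq2, 111 and 28 with 2 groups, 0 and 0 without shallow and 1 and 0 without follicle-rich libraries, 3 lower unfiltered, 8 without robust estimation and 12 with voom, and 0 to 45 higher and 0 to 4 lower leaving out a library. After irradiation DESeq2 called 3 higher and 6 lower (0 to 1 higher leaving out a library), and for the interaction 1 lower (0 to 2).

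Signs turned for members that were not called. Without follicle-rich libraries Zbtb46 was at 0.26 on the adequate diet, and the diet difference without irradiation was -0.18 for Clec9a, -0.05 for Flt3 and 0.00 for Irf4. Without shallow libraries Batf3 was at 0.03 for diet after irradiation, and the Irf8 interaction was 0.03 (0.01 with voom). Leaving out a library gave Zbtb46 -0.23 to 0.16 (irradiation, adequate). For diet without irradiation it gave Clec9a -0.11 to 0.20, Flt3 -0.06 to 0.21 and Irf4 -0.42 to 0.15, and after irradiation Flt3 -0.52 to 0.10, Xcr1 -0.28 to 0.35 and Zbtb46 -0.20 to 0.03. The interaction ranged over -0.60 to 0.02 for Flt3, -0.62 to 0.12 for Xcr1, -0.05 to 0.32 for Itgax and -0.08 to 0.13 for Irf8. Relative to Ptprc the ranges were -0.50 to 0.33 for Xcr1 and -0.13 to 0.05 for Irf8 (adequate), and -0.11 to 0.11 for Zbtb46 and -0.23 to 0.09 for Irf8 (supplemented). With a pseudocount of 1 CPM Xcr1 was at 0.02 (adequate) and Zbtb46 at 0.01 (supplemented). Relative to Coro1a, Xcr1 was at 0.10 and 0.02 and Irf8 at 0.13 and 0.19 on the adequate and supplemented diets, and Zbtb46 at 0.26 (supplemented); relative to Laptm5, Batf3 was at -0.17 and Zbtb46 at -0.03 (adequate).

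No paired analysis was possible because replicate numbers follow the order of deposit. For Xcr1 the SE of the log2 difference was 0.43 and 0.44 and for Batf3 0.34 and 0.37 on the supplemented and adequate diets, and Batf3, Xcr1, Flt3 and Clec9a had between 124 and 415 counts over 16 libraries. The place of sampling within the jejunum, and any lymphoid follicle in it, is not recorded.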
